A study of Macaca mulatta with 27 samples.

Results

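The 10 genes described here are markers of neural progenitors and of the structure of young neurons. NES and FABP7 mark progenitors. TUBB3, DCX, STMN2, and MAP2 belong to the neuronal cytoskeleton, ELAVL3 and ELAVL4 encode neuronal RNA-binding proteins, and GAP43 and NCAM1 act in growth cones and adhesion. They were chosen by symbol, and all 10 were found among the 17967 gene symbols of the counts. Earlier results of these data were known when they and the lists below were chosen. Their counts beside the share of all genes are therefore a description, not a test. Bulk RNA of rhesus PSCs gave 27 libraries. Primed cells had 6, and each of 7 protocols (LCDM (EPS), t2iLGöY, NHSM-v, 4i/L/b, TL2i, TL-CDK8i, and E-NHSM), whose products the labels call naive, had 3. All cells came from 1 clone of the LyonES line, which carries a tauGFP transgene driven by the CAG promoter and the hormone-dependent fusion STAT3-ERT2. Tamoxifen, which switches on that fusion, was given in TL2i and TL-CDK8i only. TL2i adds LIF and inhibitors of MEK and GSK3β, and TL-CDK8i replaces these inhibitors by the CDK8/19 inhibitor CNIO-47799. The remaining protocols are cocktails of cytokines and kinase inhibitors without tamoxifen. Primed cells were passaged mechanically in clumps and reprogrammed cells as single cells, so the way of passaging cannot be told apart from the protocol.

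Neural progenitors divide and form the lining of the early neural tube, and their daughters leave the cycle and turn on neuronal genes. Nestin, the product of NES, is an intermediate filament protein of dividing progenitors that is also made outside the nervous system, and FABP7 is a fatty acid binding protein of radial glia. In the newborn neuron, the tubulin TUBB3, the microtubule binding proteins DCX and MAP2, and the microtubule destabilizer STMN2 shape growing processes, and ELAVL3 and ELAVL4 stabilize and help splice neuronal mRNAs. GAP43 is a growth cone protein, and NCAM1 is an adhesion molecule of neurons and of several other tissues.

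Total counts ranged from 7111886 to 20760914 per library, with a median of 12201171. The shallowest library was replicate J3 of primed cells, named by its column letter. Levels are given as CPM, read counts scaled to the size of the library, with edgeR's TMM factors, and 3 counts, taken as the floor, correspond to 0.141 to 0.429 CPM. Each protocol was compared with primed cells by edgeR's quasi-likelihood test on counts, with a Benjamini-Hochberg adjusted p under 0.05 over all genes tested as the threshold, and the 7 comparisons share the primed libraries. Nothing says that the replicates came from separate cultures, so the p-values measure the spread between these libraries, which may be technical. In bulk samples, fewer cells of a type and less RNA per cell cannot be told apart. The 36 pairs of libraries within groups each differed by more than sampling noise. The primed libraries, pooled here, carry the column letter J or K. Pairs of a J with a K library differed more, with a chi-square per gene of 18.9 to 29.8, than pairs sharing a letter (9.14 to 16.9).

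Most of the neuron genes, and FABP7 with them, were higher in 5 or more protocols, and NES was not. The highest mean of 7 of the 8 neuron genes was that of LCDM (EPS) or t2iLGöY cells, with changes up to 9.15 on the log2 scale, while NES changed by less than 1 on that scale in every protocol. In LCDM (EPS), 10 of 10 genes rose, where 28.2% of all genes tested rose and 28.9% fell. In t2iLGöY, 9 rose and NES fell, against 27.1% and 27.2% of all genes. NHSM-v gave the same split of 9 higher and 1 lower, against 28% and 30.6%. In 4i/L/b, 9 rose and none fell, against 26.6% and 29%.

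Fewer of the genes changed in the other 3 protocols. In TL2i, 6 of 10 rose and none fell, where 25.6% of all genes rose and 25.2% fell. In TL-CDK8i, 5 of 9 tested rose and NES fell, against 22.3% and 23.8%. E-NHSM was mixed in direction, with 2 higher and 3 lower of 8 tested, against 11.1% and 15.1% of all genes. ELAVL3 and ELAVL4 did not pass the filter on low counts in E-NHSM, nor did ELAVL4 in TL-CDK8i. The median log2 fold change of the genes tested was 4.30 in LCDM (EPS), 3.86 in t2iLGöY, 3.04 in NHSM-v, 2.31 in 4i/L/b, 2.10 in TL2i, 1.22 in TL-CDK8i, and -0.06 in E-NHSM, whereas the median over all genes lay between -0.02 and 0.07 in these comparisons.

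**Figure D1:**
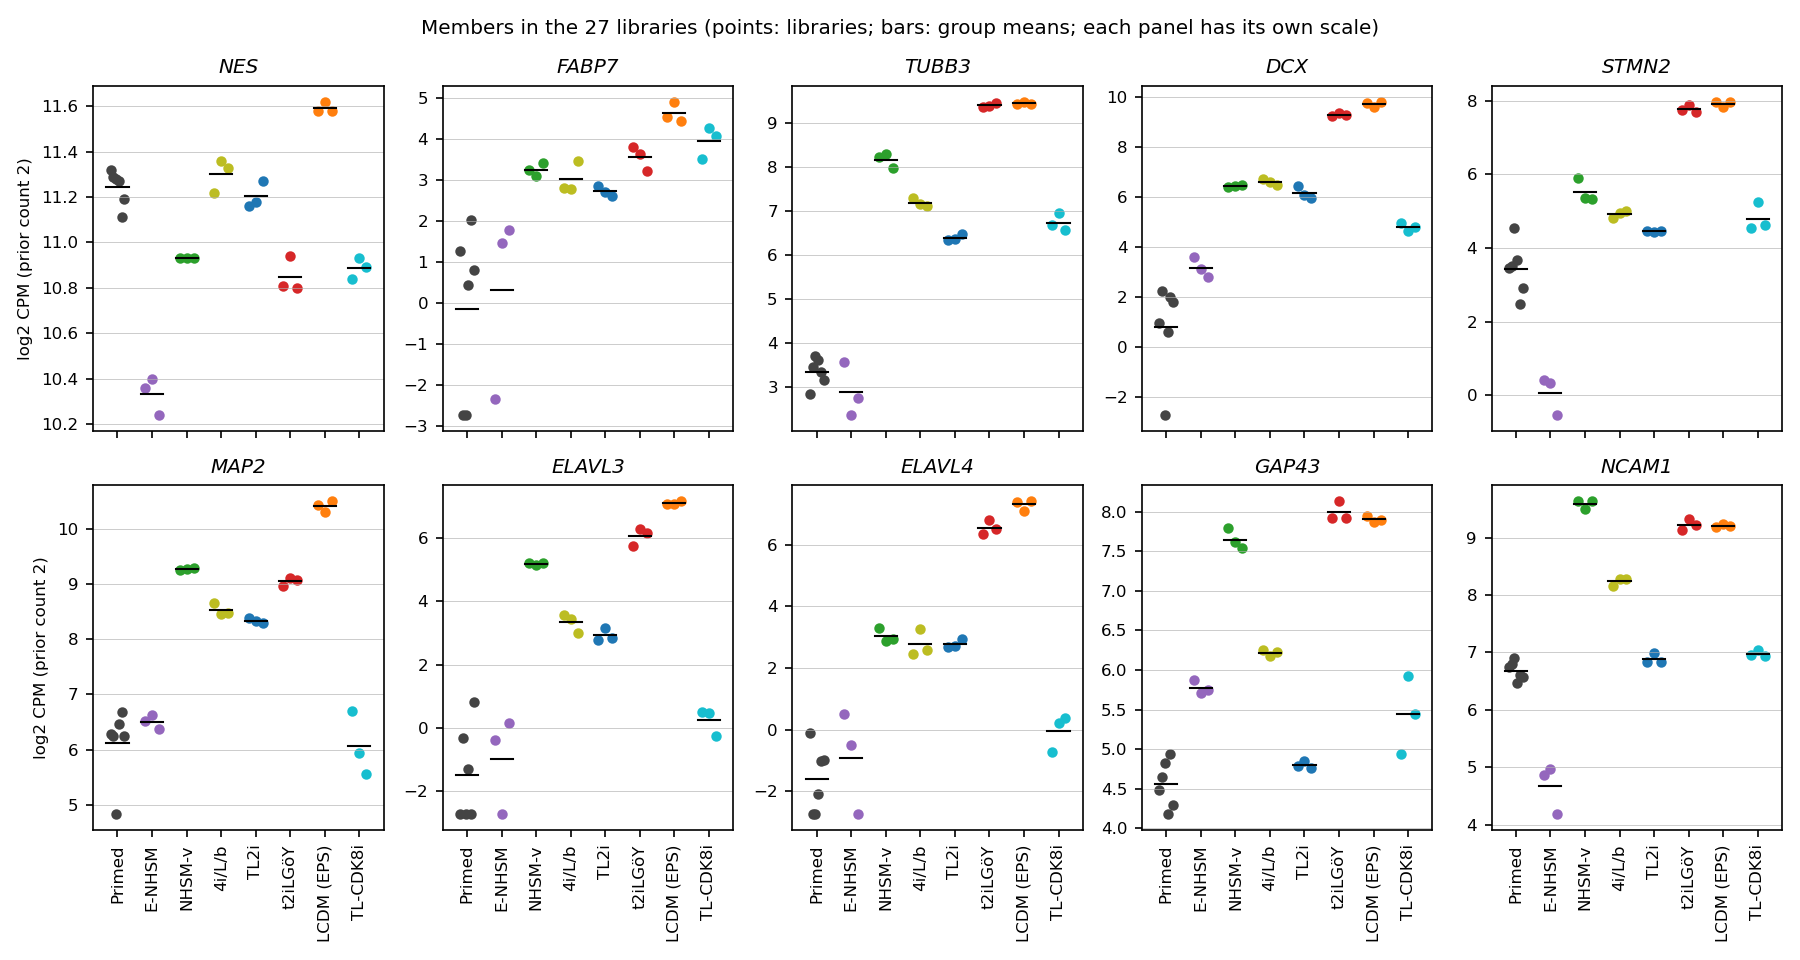
Level of the 10 genes in the 27 libraries, as log2 CPM with a prior count of 2 (vertical axis, a scale of its own for each gene), by group (horizontal axis). Points are libraries and bars are group means; the NES panel spans less than 2 log2 units, and DCX ranges from 0 counts in a primed library to 907 CPM in LCDM (EPS).

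NES was abundant in every library and moved little. Its level in primed cells was between 2220 and 2560 CPM with a median of 2470. The 3 LCDM (EPS) libraries held 3060, 3140, and 3060 CPM, all above the primed range, and the change was 0.35 ± 0.05 (log2, SE, adjusted p = 3.6e-05). E-NHSM was at the other end, with 1320, 1350, and 1210 CPM, where NES fell by 0.92 on the log2 scale (SE 0.06, adjusted p = 2.1e-09). NES also fell in NHSM-v (1940, 1950, and 1950 CPM), t2iLGöY (1800, 1970, and 1780 CPM), and TL-CDK8i (1840, 1950, and 1890 CPM), with log2 changes of -0.34, -0.37, and -0.41. Levels in 4i/L/b (2380, 2630, and 2570 CPM) and TL2i (2280, 2330, and 2470 CPM) overlapped the primed range. In the order of means, LCDM (EPS) came first and E-NHSM last, and the ranges of 4i/L/b and TL2i overlapped, as did those of TL-CDK8i with NHSM-v and t2iLGöY.

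FABP7 was scarce in primed cells and higher in 5 protocols. Primed libraries held 0 to 3.94 CPM with a median of 1.40, and 2 of 6, replicates J2 and J3, had no count. The level in LCDM (EPS) was 23.2, 29.8, and 21.5 CPM, a mean of 16.6 times the primed mean, with a log2 change of 3.98 ± 0.71 (SE, adjusted p = 0.00029). TL-CDK8i followed with 11.2, 19.2, and 16.6 CPM and a change of 3.29 ± 0.79 (adjusted p = 0.0035), so that FABP7 was the gene for which TL-CDK8i ranked second among the protocols. t2iLGöY libraries held 13.8, 12.2, and 9.18 CPM, a range that overlapped that of TL-CDK8i. NHSM-v (9.36, 8.33, and 10.5 CPM) and 4i/L/b (6.82, 6.68, and 10.8 CPM) had adjusted p-values of 0.023 and 0.044, and the first was lost when any 1 NHSM-v library was left out (0.053 to 0.076). The call in 4i/L/b was lost without any 1 of its own libraries or without primed replicate J1, K1, or K3 (0.053 to 0.17). TL2i (7.11, 6.41, and 5.94 CPM, adjusted p = 0.079) and E-NHSM (0.0471, 2.61, and 3.28 CPM, adjusted p = 0.87) did not pass the threshold. FABP7 passed in TL2i with all 8 groups in one fit (adjusted p = 0.0051), with primed letter K only (0.023), and without primed replicate K2 (0.043). With primed letter J only, 2 of whose 3 libraries had no count, the changes of FABP7 were larger, at 5.0 in LCDM (EPS), 4.28 in TL-CDK8i, 3.95 in t2iLGöY, 3.61 in NHSM-v, and 3.37 in 4i/L/b, and without K2 the change in NHSM-v was 3.21, against 2.59 with all libraries.

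TUBB3 rose in 6 protocols by wide margins. In primed cells it was at 7.04 to 12.9 CPM with a median of 10.4. The LCDM (EPS) libraries held 699, 720, and 695 CPM and those of t2iLGöY 666, 668, and 702 CPM. These ranges overlapped each other and lay far above the primed one, with log2 changes of 6.11 ± 0.13 (adjusted p = 4.1e-13) and 6.08 ± 0.14 (adjusted p = 1.9e-13). NHSM-v (303, 315, and 253 CPM), 4i/L/b (157, 144, and 139 CPM), TL-CDK8i (103, 124, and 94.4 CPM), and TL2i (81.3, 82.7, and 89.0 CPM) followed in that order, with ranges that did not overlap. Their log2 changes were 4.80, 3.80, 3.34, and 3.04. In E-NHSM the gene stood at 11.8, 5.0, and 6.57 CPM, within and below the primed range (log2 change -0.40 ± 0.35, adjusted p = 0.44). TUBB3 belongs to a family of near-identical tubulins, and how reads shared between them were counted is not given in the sources used here.

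DCX, doublecortin, was called higher in all 7 protocols. Primed libraries held 0 to 4.53 CPM with a median of 2.53, and replicate J3 had no count, which at its depth allows up to 0.429 CPM. The highest values were those of LCDM (EPS), 866, 786, and 907 CPM, and of t2iLGöY, 604, 666, and 622 CPM. These groups did not overlap, and their means were 347 and 256 times the primed mean, with log2 changes of 8.36 ± 0.32 (adjusted p = 6e-11) and 7.95 ± 0.32 (adjusted p = 4.7e-11). An intermediate level was held by 4i/L/b (104, 98.5, and 90.1 CPM), NHSM-v (83.7, 86.7, and 89.6 CPM), and TL2i (85.8, 67.0, and 62.3 CPM), of which the last 2 overlapped. Their log2 changes were 5.21, 5.06, and 4.81. TL-CDK8i came next with 31.4, 24.9, and 27.5 CPM (log2 change 3.42 ± 0.55, adjusted p = 0.00015). In E-NHSM DCX was at 11.9, 8.62, and 6.78 CPM, all above the primed range, with a change of 1.87 ± 0.67 (adjusted p = 0.049). That call was lost in 8 of 15 alternatives, among them the omission of any 1 E-NHSM library (adjusted p of 0.22, 0.12, and 0.089) and of primed replicate J1, K1, K2, or K3 (0.050 to 0.084).

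For STMN2 the protocols differed in direction. Primed cells held 5.46 to 23.3 CPM with a median of 11.1, the highest value being that of replicate J3. LCDM (EPS) (248, 226, and 251 CPM) and t2iLGöY (214, 234, and 208 CPM) overlapped each other and were about 20.5 and 18.5 times the primed mean, with log2 changes of 4.40 ± 0.29 (adjusted p = 1.6e-08) and 4.27 ± 0.29 (adjusted p = 1e-08). NHSM-v (59.4, 40.7, and 40.2 CPM) and 4i/L/b (27.8, 30.6, and 31.8 CPM) rose by 1.97 and 1.32. TL-CDK8i (23.1, 37.7, and 24.4 CPM) and TL2i (21.9, 21.6, and 22.1 CPM) overlapped the primed range through J3, with changes of 1.22 ± 0.35 (adjusted p = 0.011) and 0.89 ± 0.35 (adjusted p = 0.045). The TL-CDK8i call was lost without its replicate 2 (adjusted p = 0.09) and with primed letter J only (0.051). In TL2i the call was lost on leaving out any 1 library except primed replicate J3 (adjusted p of 0.058 to 0.11). It was also lost with primed letter J only (adjusted p = 0.16). E-NHSM held 1.18, 1.11, and 0.538 CPM, all below the primed range, and the gene fell by 3.63 on the log2 scale (SE 0.53, adjusted p = 5.1e-05).

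MAP2, a microtubule-associated protein of dendrites, had its highest level in LCDM (EPS). The primed libraries held 28.3 to 102 CPM with a median of 76.6, and J3 was the lowest, far from the next at 75.2 CPM. In LCDM (EPS) the values were 1380, 1260, and 1460 CPM, a mean 18.4 times that of primed cells and 2.21 times that of the next protocol, with a log2 change of 4.20 ± 0.24 (adjusted p = 3.5e-09). NHSM-v (608, 620, and 629 CPM) came second, followed by t2iLGöY (497, 552, and 540 CPM), 4i/L/b (404, 352, and 354 CPM), and TL2i (333, 320, and 315 CPM). The ranges of these groups did not overlap, and their log2 changes were 3.03, 2.85, 2.27, and 2.11. MAP2 was not called in E-NHSM (90.9, 98.1, and 82.9 CPM, log2 change 0.27 ± 0.24, adjusted p = 0.43) or in TL-CDK8i (104, 60.8, and 47.0 CPM, log2 change -0.13 ± 0.30, adjusted p = 0.75). The TL-CDK8i libraries spread over more than the primed libraries other than J3.

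The neuronal RNA-binding proteins were at low levels in primed cells. ELAVL4, which had the largest change of the 10 genes in LCDM (EPS) and t2iLGöY, was at 0 to 0.782 CPM in primed cells, with a median of 0.216 CPM, at most 7 counts in a library, and no count in replicates J2 and J3. It reached 168, 137, and 172 CPM in LCDM (EPS) and 82.0, 111, and 90.3 CPM in t2iLGöY. The log2 changes were 9.15 ± 0.33 (adjusted p = 3.1e-11) and 8.42 ± 0.40 (adjusted p = 2.2e-10). By size of change, ELAVL4 ranked 73rd of 13625 genes in LCDM (EPS). NHSM-v (9.70, 7.20, and 7.57 CPM), 4i/L/b (5.38, 9.48, and 5.87 CPM), and TL2i (6.22, 6.47, and 7.49 CPM) were close together and overlapped as neighbours in the order of means, with log2 changes of 4.85, 4.6, and 4.61. Without primed replicate J1, the highest of the primed libraries, the changes in NHSM-v and 4i/L/b became 5.50 and 5.19. E-NHSM (1.27, 0.556, and 0 CPM) and TL-CDK8i (0.459, 1.00, and 1.16 CPM) were not tested, and their ranges overlapped that of primed cells.

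ELAVL3 followed the same order of protocols. Primed cells held 0 to 1.60 CPM, with a median of 0.128 CPM and no count in 3 of 6 libraries (J1, J3, and K2). LCDM (EPS) held 137, 135, and 146 CPM, and the change was 8.31 ± 0.48 (log2, SE, adjusted p = 3.5e-09). In t2iLGöY the values were 53.8, 77.9, and 71.4 CPM (7.29 ± 0.60, adjusted p = 8.7e-08), and in NHSM-v 36.9, 35.5, and 37.5 CPM (6.35 ± 0.69, adjusted p = 1.5e-06). NHSM-v thus stood well above 4i/L/b (11.8, 10.7, and 7.80 CPM) and TL2i (6.76, 8.80, and 7.0 CPM) for ELAVL3, which it did not for ELAVL4. TL-CDK8i (1.26, 1.23, and 0.677 CPM, log2 change 1.24 ± 1.32, adjusted p = 0.47) and E-NHSM (0.612, 0, and 0.969 CPM, not tested) overlapped the primed range. Without primed replicate K3, which held the highest primed value, the changes of ELAVL3 became 9.57 in LCDM (EPS), 8.49 in t2iLGöY, 7.62 in NHSM-v, 5.71 in 4i/L/b, and 5.31 in TL2i. ELAVL3 and ELAVL4 are paralogs, so reads shared between them are a source of uncertainty for both.

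GAP43 and NCAM1 were already well above the floor in primed cells, at 18.0 to 30.5 CPM (median 23.5) and 88.5 to 119 CPM (median 103). GAP43 reached 241, 281, and 242 CPM in t2iLGöY and 247, 234, and 239 CPM in LCDM (EPS), 2 overlapping groups with log2 changes of 3.44 ± 0.15 (adjusted p = 9.7e-11) and 3.33 ± 0.15 (adjusted p = 2.1e-10). NHSM-v was close below at 222, 196, and 185 CPM (3.05 ± 0.15, adjusted p = 3e-10), and 4i/L/b held 75.9, 72.2, and 74.8 CPM (1.60 ± 0.17, adjusted p = 2.2e-06). E-NHSM rose as well, at 58.7, 52.1, and 53.3 CPM, all above the primed range, with a change of 1.19 ± 0.18 (adjusted p = 5.7e-05). GAP43 was called in TL-CDK8i (30.6, 60.7, and 43.4 CPM, 0.86 ± 0.22, adjusted p = 0.005), a call that was lost without replicate 2, the highest (adjusted p = 0.075). In TL2i it stood at 27.4, 28.8, and 26.9 CPM, inside the primed range (0.21 ± 0.19, adjusted p = 0.37).

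NCAM1 had the highest level in NHSM-v, with 798, 724, and 792 CPM, 7.47 times the primed mean and a log2 change of 2.88 ± 0.09 (adjusted p = 2e-12). t2iLGöY (563, 639, and 595 CPM) and LCDM (EPS) (583, 603, and 585 CPM) overlapped each other below it, with changes of 2.56 and 2.52. In 4i/L/b the values were 286, 311, and 311 CPM, a change of 1.51. TL-CDK8i (124, 131, and 123 CPM) lay just above the primed range without a call (0.24 ± 0.11, adjusted p = 0.096), and TL2i (113, 128, and 113 CPM) overlapped it (0.19 ± 0.11, adjusted p = 0.16). The TL-CDK8i value passed the threshold without primed replicate J3 (adjusted p = 0.033), with DESeq2 (0.036), with all 8 groups in one fit (0.022), and with primed letter K only (0.0046). The TL2i value passed with letter K only (0.012). E-NHSM was again the exception in direction, at 29.2, 31.1, and 18.1 CPM, all below the primed range, and NCAM1 fell by 1.99 on the log2 scale (SE 0.17, adjusted p = 9.9e-08).

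**Figure D2:**
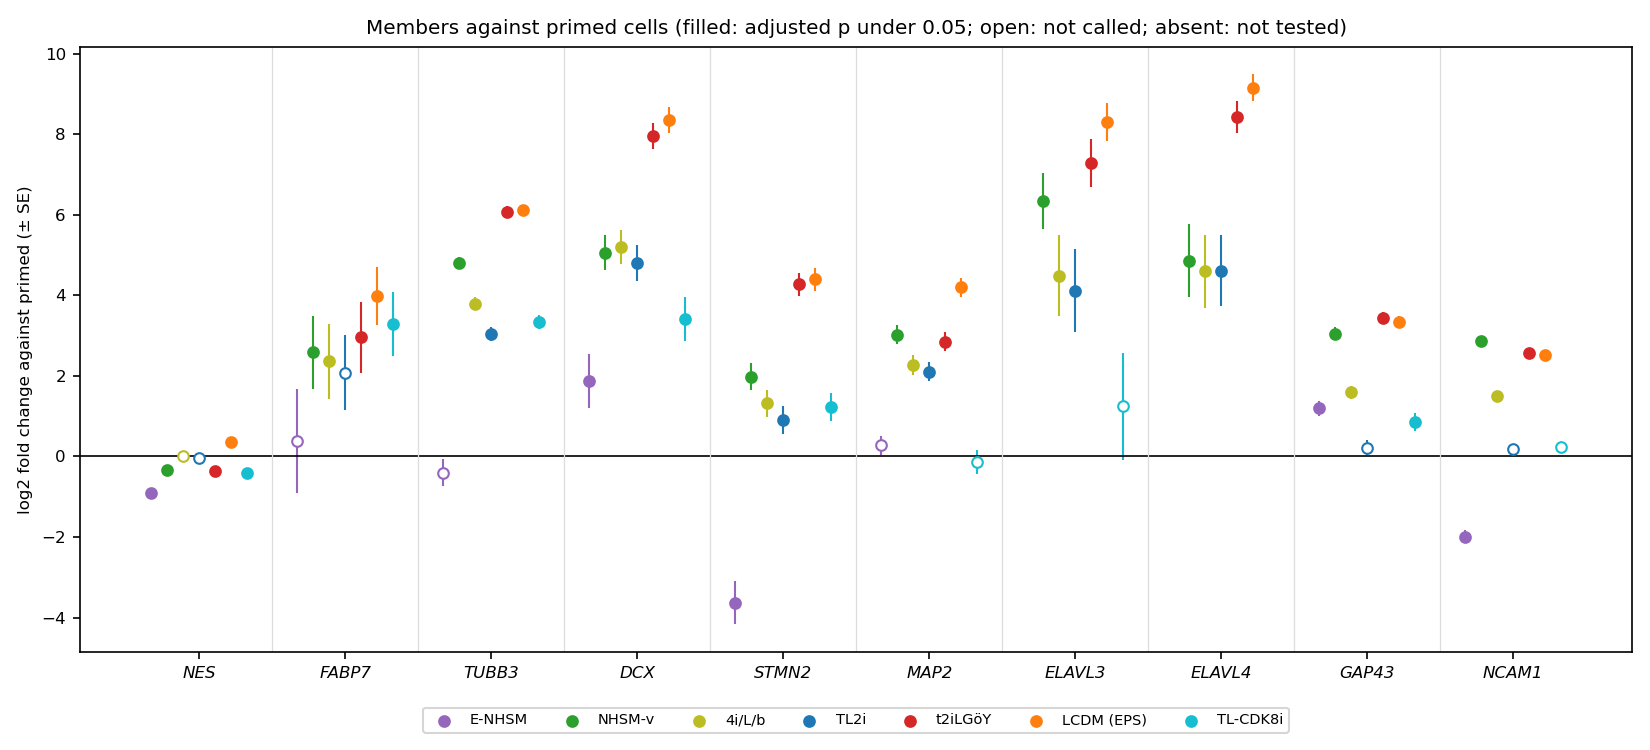
Log2 fold change of each gene against primed cells (vertical axis) with its standard error, for the 7 protocols (colours). Filled points passed an adjusted p of 0.05 and open points did not; a protocol is absent where the gene was not tested, and the points of LCDM (EPS) and t2iLGöY stand highest for DCX, ELAVL3, and ELAVL4, at 7.29 to 9.15, while those of NES lie between -0.92 and 0.35.

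Across the 7 comparisons, DCX was higher in 7, TUBB3, STMN2, and GAP43 in 6, FABP7, MAP2, ELAVL3, and ELAVL4 in 5, NCAM1 in 4, and NES in 1. NES was lower in 4 protocols, and STMN2 and NCAM1 were lower in E-NHSM. When only the primed columns of letter J were used, the number higher in E-NHSM went from 2 to 1. Without replicate J3 the numbers higher were 2 in E-NHSM, 9 in NHSM-v, 9 in 4i/L/b, 6 in TL2i, 9 in t2iLGöY, 10 in LCDM (EPS), and 6 in TL-CDK8i. Without TL-CDK8i replicate 2 the last of these counts, 5 with all libraries, became 3. The number of all genes higher in TL-CDK8i moved as well, being 2323 to 3264 with 1 library left out and 2985 with all.

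Protocols were then compared directly in 4 pairs, to see which genes separate them. Both groups of the first pair, LCDM (EPS) and t2iLGöY, had high neuron genes. Of the 10 genes, 6 were higher in LCDM (EPS) and none lower, where 15.7% and 16.8% of all genes tested were. MAP2 differed most, by 1.32 ± 0.06 (log2, SE, adjusted p = 1.1e-11), followed by FABP7 at 1.03 ± 0.22, ELAVL3 at 0.99 ± 0.12, ELAVL4 at 0.70 ± 0.12, NES at 0.69 ± 0.04, and DCX at 0.39 ± 0.06. TUBB3, STMN2, GAP43, and NCAM1 did not pass the threshold, with differences between -0.13 and 0.10 and standard errors of 0.05 to 0.08. With all 8 groups in one fit, 3 of the 6 calls were left, since FABP7, DCX, and ELAVL4 no longer passed.

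Against TL2i, all 10 genes were higher in LCDM (EPS), where 29.5% of all genes were higher and as many, 29.5%, lower. The difference was 4.57 ± 0.13 for ELAVL4, 4.21 ± 0.12 for ELAVL3, 3.57 ± 0.11 for DCX, and 3.47 ± 0.09 for STMN2, and it was smallest for NES, 0.39 ± 0.07 (adjusted p = 5.9e-05). The median over the 10 genes was 3.09.

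TL-CDK8i and TL2i both use tamoxifen and differ in their inhibitors. Of the 10 genes, 3 were higher in TL-CDK8i and 5 lower, against 31.5% and 33.3% of all genes tested. FABP7 (1.24 ± 0.21, adjusted p = 0.00017), GAP43 (0.66 ± 0.18, adjusted p = 0.0052), and TUBB3 (0.31 ± 0.11, adjusted p = 0.019) were higher. ELAVL4, ELAVL3, MAP2, and DCX were lower, with log2 differences of -2.94, -2.87, -2.23, and -1.39 and adjusted p-values from 7.1e-07 to 7.5e-06, and NES was lower (-0.35, adjusted p = 0.0039). STMN2 (0.34 ± 0.17, adjusted p = 0.089) and NCAM1 (0.06 ± 0.09, adjusted p = 0.58) did not pass. The NES call was lost without TL2i replicate 3 (adjusted p = 0.052) and that of TUBB3 without TL-CDK8i replicate 2 (adjusted p = 0.11), and with all 8 groups in one fit GAP43 alone remained of the 3 higher genes. STMN2 passed as higher without TL-CDK8i replicate 1 (adjusted p = 0.023) or 3 (adjusted p = 0.043).

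NHSM-v and 4i/L/b had similar DCX, ELAVL4, and FABP7 but differed in others. Of the 10 genes, 6 were higher in NHSM-v and 1 lower, against 25% and 25.1% of all genes. ELAVL3 differed by 1.87 ± 0.18, GAP43 by 1.44 ± 0.08, NCAM1 by 1.36 ± 0.06, TUBB3 by 1.00 ± 0.08, MAP2 by 0.75 ± 0.06, and STMN2 by 0.65 ± 0.15, while NES was lower (-0.37 ± 0.05). For DCX the difference was -0.16 ± 0.09 (adjusted p = 0.14), for ELAVL4 0.25 ± 0.31 (adjusted p = 0.51), and for FABP7 0.22 ± 0.27 (adjusted p = 0.52). With upper-quartile scaling DCX passed as well, so that 2 genes were lower. STMN2 no longer passed with all 8 groups in one fit (adjusted p = 0.066), which left 5 genes higher.

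Progenitor and neuron transcripts were set against each other within each library. The log2 CPM (prior count of 2) of DCX minus that of NES is given with no test. Its absolute size depends on the lengths of the transcripts, so only its shift between groups can be read. NES was already at 2220 to 2560 CPM in primed cells, and its log2 changes against them were between -0.92 and 0.35. The shift therefore follows DCX for the most part and does not measure the number of progenitors. The difference was -10.4 ± 1.87 (SD, n = 6) in primed cells, where J3 with no DCX count gave the lowest value, -14.0, and the others lay between -10.7 and -9.07. It was -7.16 ± 0.35 in E-NHSM, -6.08 ± 0.21 in TL-CDK8i, and -5.05 ± 0.29 in TL2i (SD, n = 3 each). NHSM-v, at -4.49 ± 0.05, was close to 4i/L/b, at -4.69 ± 0.17. LCDM (EPS) and t2iLGöY were at -1.86 ± 0.13 and -1.55 ± 0.03. The mean of the 8 neuron genes minus the mean of NES and FABP7 was 0.97 ± 0.20 in t2iLGöY and 0.52 ± 0.20 in LCDM (EPS), and in each library of the other groups it was lower, from -3.79 to -0.12. By this measure TL-CDK8i, at -3.04 ± 0.19, lay within the primed range, with higher FABP7 than primed cells. Its mean of the 8 neuron genes, 4.253 to 4.55 log2 CPM, was above that of primed cells, 2.075 to 3.101. The measure depends on scarce FABP7. Primed replicates J2 and J3, without a FABP7 count, gave the highest primed values, -1.301 and -2.195.

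The summed level of the 8 neuron genes was highest in LCDM (EPS), above t2iLGöY. It was 212 to 250 CPM in primed cells and 169 to 206 CPM in E-NHSM, ranges that did not overlap. The lower sum in E-NHSM rested mainly on NCAM1, with a mean of 103 CPM in primed cells and 26.1 CPM in E-NHSM. STMN2 and TUBB3 also had lower means there, while MAP2, GAP43, DCX, ELAVL3, and ELAVL4 had higher ones. The sum was 361 to 441 CPM in TL-CDK8i, 644 to 676 CPM in TL2i, 1010 to 1070 CPM in 4i/L/b, 2030 to 2120 CPM in NHSM-v, 2920 to 3230 CPM in t2iLGöY, and 4100 to 4460 CPM in LCDM (EPS). No neighbouring ranges overlapped. Over the 8 group means, the Pearson correlations of the 28 pairs of neuron genes were between 0.675 and 0.969 (median 0.858), those of NES with the 8 neuron genes between 0.0792 and 0.619 (median 0.444), and those of FABP7 with them between 0.624 and 0.923 (median 0.777). These describe 8 points that share their libraries and scaling.

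**Figure D3:**
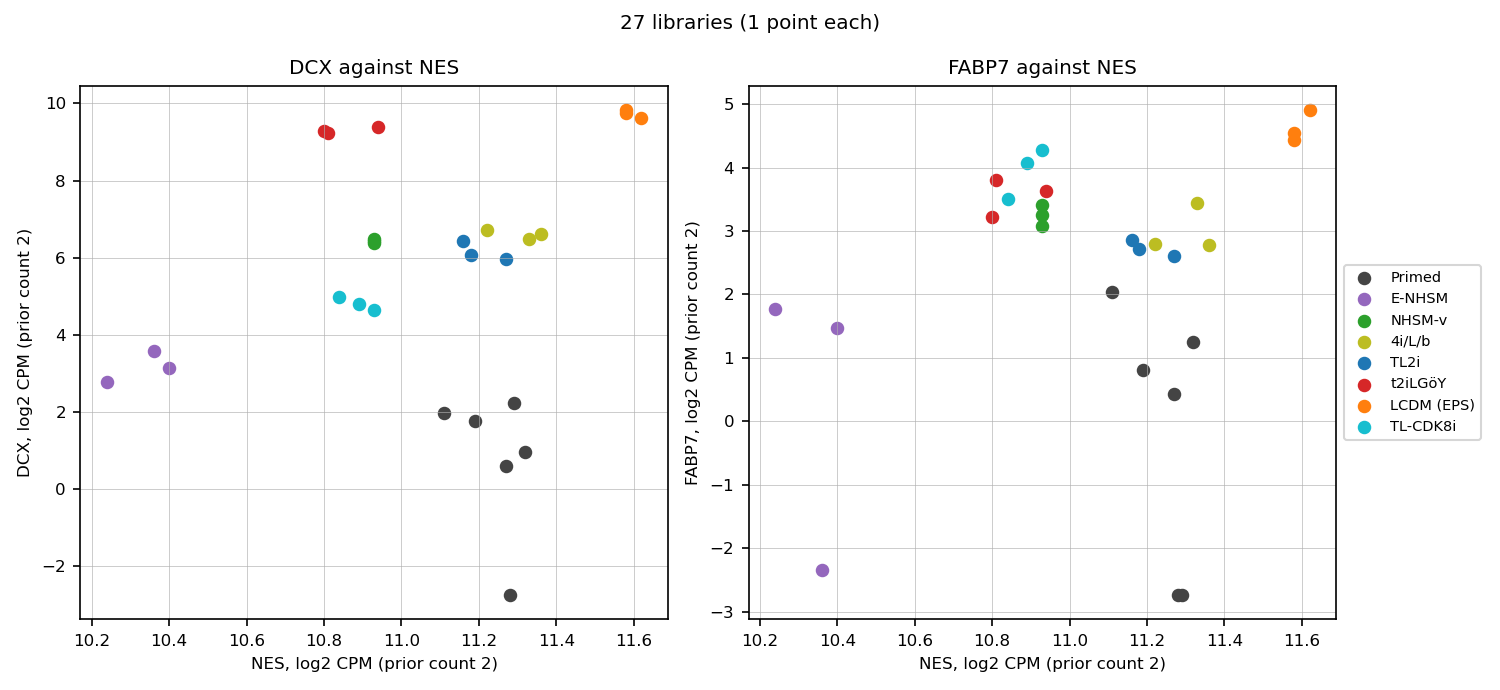
DCX (left) and FABP7 (right) against NES, all as log2 CPM with a prior count of 2, in the 27 libraries coloured by group. LCDM (EPS) and t2iLGöY are alike in high DCX and differ in NES (3060 to 3140 CPM and 1780 to 1970 CPM), E-NHSM has the lowest NES, and TL-CDK8i has FABP7 above most protocols with DCX below them.

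Other genes of neural progenitors were examined in a list of 14. In LCDM (EPS), 11 of 14 tested were higher and 2 lower, and in t2iLGöY 10 of 14 and 3. The numbers were 8 and 3 of 13 in NHSM-v, 7 and 2 of 12 in 4i/L/b, 8 and 2 of 12 in TL2i, and 4 and 1 of 11 in TL-CDK8i. In E-NHSM, 1 was higher and 7 lower of 11, with a median log2 fold change of -0.84, where the median over all genes was 0.02. Of all genes tested, 11.1% were higher and 15.1% lower in E-NHSM. In the other protocols 22.3% to 28.2% were higher and 23.8% to 30.6% lower. The 4 most abundant genes of the list are described here. VIM, the intermediate filament vimentin of progenitors and of mesenchymal cells, rose in 6 protocols by 1.40 to 2.55 and fell by 1.53 on the log2 scale in E-NHSM. CDH2, the adhesion molecule N-cadherin, rose by 0.93 to 2.46 in the same 6 protocols and fell by 2.71 in E-NHSM. GLI3, a transcription factor of the hedgehog pathway, rose by 1.24 to 3.61 in those protocols (E-NHSM 0.48 ± 0.21, adjusted p = 0.11). PTPRZ1, a receptor phosphatase of radial glia, was lower in all 7 protocols. It fell by 0.79 in LCDM (EPS) and fell by 5.68 in NHSM-v, with a mean of 760 CPM in primed cells, 439 CPM in LCDM (EPS), and 15.1 CPM in NHSM-v.

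A list of 23 other structural genes of neurons, of which 22 were found, moved with the neuron genes in LCDM (EPS) and t2iLGöY. In each of these, 19 of 22 were higher and 3 lower, with median log2 fold changes of 2.16 and 2.37. The split was 12 and 3 in NHSM-v, 13 and 5 in 4i/L/b, 9 and 8 in TL2i, and 9 and 7 in TL-CDK8i, of 22 each, and 6 and 3 of 21 in E-NHSM. Shares of all genes were 11.1% higher and 15.1% lower in E-NHSM, and 22.3% to 28.2% and 23.8% to 30.6% in the others. MAP1B, a microtubule-associated protein of growing axons, rose in all 7 protocols, by 3.06 ± 0.15 in LCDM (EPS), 2.64 ± 0.15 in t2iLGöY, and 0.40 ± 0.14 in E-NHSM (adjusted p = 0.043). TUBA1A, an alpha-tubulin abundant in young neurons, rose by 0.66 to 2.59 in 6 protocols, the exception being TL-CDK8i (0.18 ± 0.11, adjusted p = 0.21). DPYSL3, which acts in growth cones, rose in 6 protocols, most in NHSM-v (3.41 ± 0.18) and TL-CDK8i (2.86 ± 0.19), and fell by 1.88 in E-NHSM. STMN1, a stathmin of dividing cells and progenitors, rose in t2iLGöY (1.32 ± 0.07) and LCDM (EPS) (0.81 ± 0.07) and fell by 1.42 in TL-CDK8i and by 0.24 in TL2i. The list includes MAPT, the gene of tau, which can share reads with the tauGFP transgene.

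Genes of synapses and mature neurons were called higher in numbers above the background in LCDM (EPS) and t2iLGöY. Of a list of 16, 10 of 16 tested were higher and 4 lower in LCDM (EPS), and 8 of 15 and 1 in t2iLGöY, with median log2 fold changes of 1.74 and 1.41. In the other protocols the numbers were 3 and 5 of 15 in NHSM-v and in 4i/L/b, 4 and 4 of 15 in TL2i, 2 and 4 of 15 in TL-CDK8i, and 2 and 4 of 16 in E-NHSM, shares near or below those of all genes in the higher direction. SYT1, the calcium sensor of synaptic vesicles, fell in 6 protocols, by 1.73 in LCDM (EPS) and 0.98 in t2iLGöY (TL-CDK8i 0.05 ± 0.11, adjusted p = 0.73). VAMP2, a vesicle fusion protein, rose by 1.48 ± 0.17 in LCDM (EPS) and 1.41 ± 0.18 in t2iLGöY, and DLG4, a scaffold of the postsynaptic density, rose by 1.15 ± 0.17 and 0.75 ± 0.18. The summed level of the 16 genes was 430 to 461 CPM in LCDM (EPS) and 423 to 504 CPM in t2iLGöY, against 262 to 298 CPM in primed cells. It was below the primed range in 4i/L/b (196 to 206 CPM), TL2i (184 to 204 CPM), and E-NHSM (169 to 193 CPM). NHSM-v (258 to 263 CPM) and TL-CDK8i (264 to 277 CPM) overlapped that range.

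**Figure D4:**
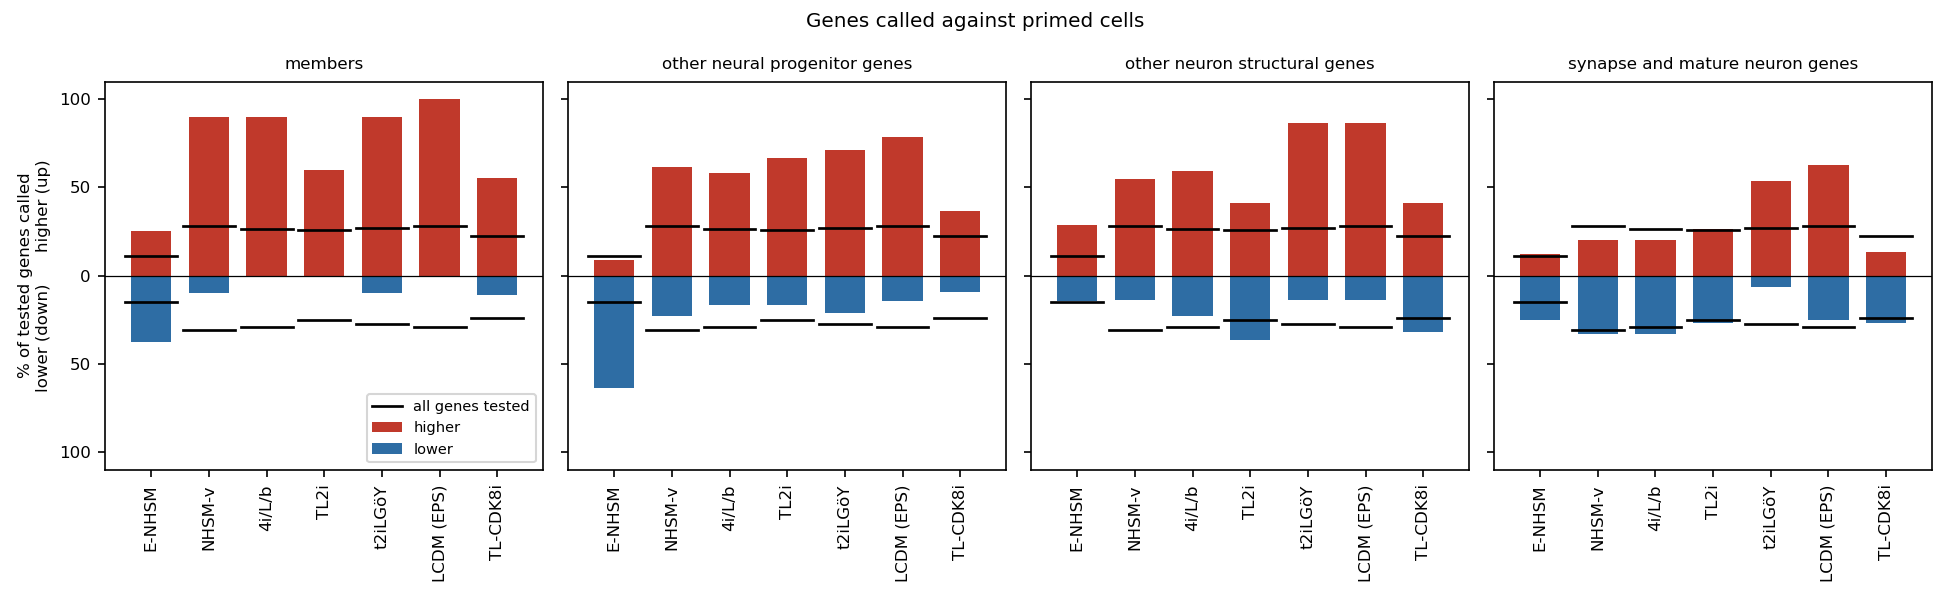
Share of the tested genes of each list called higher (up) and lower (down) than in primed cells, in percent, for the 7 protocols. Black lines give the same share over all genes tested; the 10 genes stand far above the lines in LCDM (EPS), t2iLGöY, NHSM-v, and 4i/L/b, the other neuron structural genes stand farthest above them in LCDM (EPS) and t2iLGöY, the synapse genes are well above them in these protocols alone.

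Markers of other cell types were followed in the same libraries, since bulk RNA holds all of them. The 6 pluripotency markers summed to 5210 to 5810 CPM in primed cells and 5910 to 5940 CPM in E-NHSM. Their sum was 1410 to 1990 CPM in TL-CDK8i, 339 to 422 CPM in TL2i, 98.4 to 130 CPM in LCDM (EPS), 82.4 to 85.7 CPM in 4i/L/b, 76.8 to 86.0 CPM in t2iLGöY, and 23.3 to 30.3 CPM in NHSM-v. All 6 were called lower in each of these 6 protocols, where 23.8% to 30.6% of all genes were lower. In E-NHSM 2 were higher and 2 lower, against 11.1% and 15.1% of all genes. NANOG was at or under the floor in NHSM-v, 4i/L/b, t2iLGöY, and LCDM (EPS). Of the 6 markers, 5 were above the floor in at least 1 library of LCDM (EPS), 4 in NHSM-v, and 3 in 4i/L/b and in t2iLGöY. These numbers depend on depth, which was 16799803 to 20046414 counts in LCDM (EPS) and 9504626 to 12201171 in NHSM-v. DNMT3B, the most abundant of the list, had a mean of 3100 CPM in primed cells and 98.9 CPM in LCDM (EPS), most of the sum there.

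The 8 neural crest and peripheral neuron markers were highest in sum in t2iLGöY and LCDM (EPS). They summed to 796 to 1110 CPM in t2iLGöY and 664 to 689 CPM in LCDM (EPS), 417 to 562 CPM in TL2i, 292 to 340 CPM in NHSM-v, 297 to 314 CPM in 4i/L/b, 91.9 to 121 CPM in TL-CDK8i, 29.5 to 62.4 CPM in primed cells, and 11.9 to 19.3 CPM in E-NHSM. PAX3 was the most abundant, with means of 200 CPM in LCDM (EPS), 189 CPM in t2iLGöY, and 1.79 CPM in primed cells. Of this list 7 of 8 tested were higher and 1 lower in t2iLGöY, and 5 and 2 of 8 in LCDM (EPS). The numbers were 7 and 0 of 7 in TL2i, 5 and 1 of 7 in 4i/L/b and in TL-CDK8i, 4 and 1 of 7 in NHSM-v, and 0 and 2 of 6 in E-NHSM. Over all genes, 11.1% were higher and 15.1% lower in E-NHSM, and 22.3% to 28.2% and 23.8% to 30.6% in the others.

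The 7 fibroblast markers followed another order. Their sum was 11600 to 15000 CPM in 4i/L/b, 8620 to 11200 CPM in TL-CDK8i, 7640 to 8180 CPM in NHSM-v, 2940 to 5740 CPM in TL2i, and 3410 to 4020 CPM in t2iLGöY, against 1080 to 2330 CPM in primed cells. In LCDM (EPS), where the neuron genes were highest, the sum was 769 to 1000 CPM, below the primed range, and in E-NHSM, where they were lowest in sum, it was lower still at 391 to 440 CPM. DCN and LUM were at or under the floor in t2iLGöY, E-NHSM, and primed cells. COL1A1 led this list, with a mean of 9230 CPM in 4i/L/b and 629 CPM in LCDM (EPS). Of the fibroblast markers, 7 of 7 were higher in 4i/L/b and TL2i, 6 of 7 in NHSM-v and TL-CDK8i, 3 of 5 in t2iLGöY, 2 of 7 in LCDM (EPS), and 0 of 5 in E-NHSM. Lower were 3 of 7 in LCDM (EPS), 4 of 5 in E-NHSM, and 1 of 5 in t2iLGöY. Over all genes, 11.1% were higher and 15.1% lower in E-NHSM, and 22.3% to 28.2% and 23.8% to 30.6% in the others. VIM is also made by mesenchymal cells, and what part the cell types of these lists had in the levels of the 10 genes was not tested.

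The 9 glia markers summed to 80.9 to 116 CPM in primed cells. E-NHSM (163 to 170 CPM) and TL2i (169 to 226 CPM) lay above this range, and NHSM-v (16.6 to 23.3 CPM) below it. Of the tested glia markers, 3 of 6 were higher and 1 lower in LCDM (EPS), and 0 and 1 of 5 in t2iLGöY. The numbers were 2 and 1 of 5 in TL2i, 1 and 0 of 5 in E-NHSM, and 1 and 2 of 4 in NHSM-v. They were 1 and 1 of 4 in 4i/L/b, and 0 and 0 of 5 in TL-CDK8i. Shares of all genes were 11.1% and 15.1% in E-NHSM, and 22.3% to 28.2% and 23.8% to 30.6% in the others. The 6 skeletal muscle markers summed to 262 to 358 CPM in primed cells, 1760 to 2480 CPM in TL-CDK8i, where ACTA1 had a mean of 1550 CPM, 38.0 to 49.7 CPM in LCDM (EPS), and 9.67 to 16.6 CPM in t2iLGöY. MYOD1 was at or under 3 counts in all 27 libraries.

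**Figure D5:**
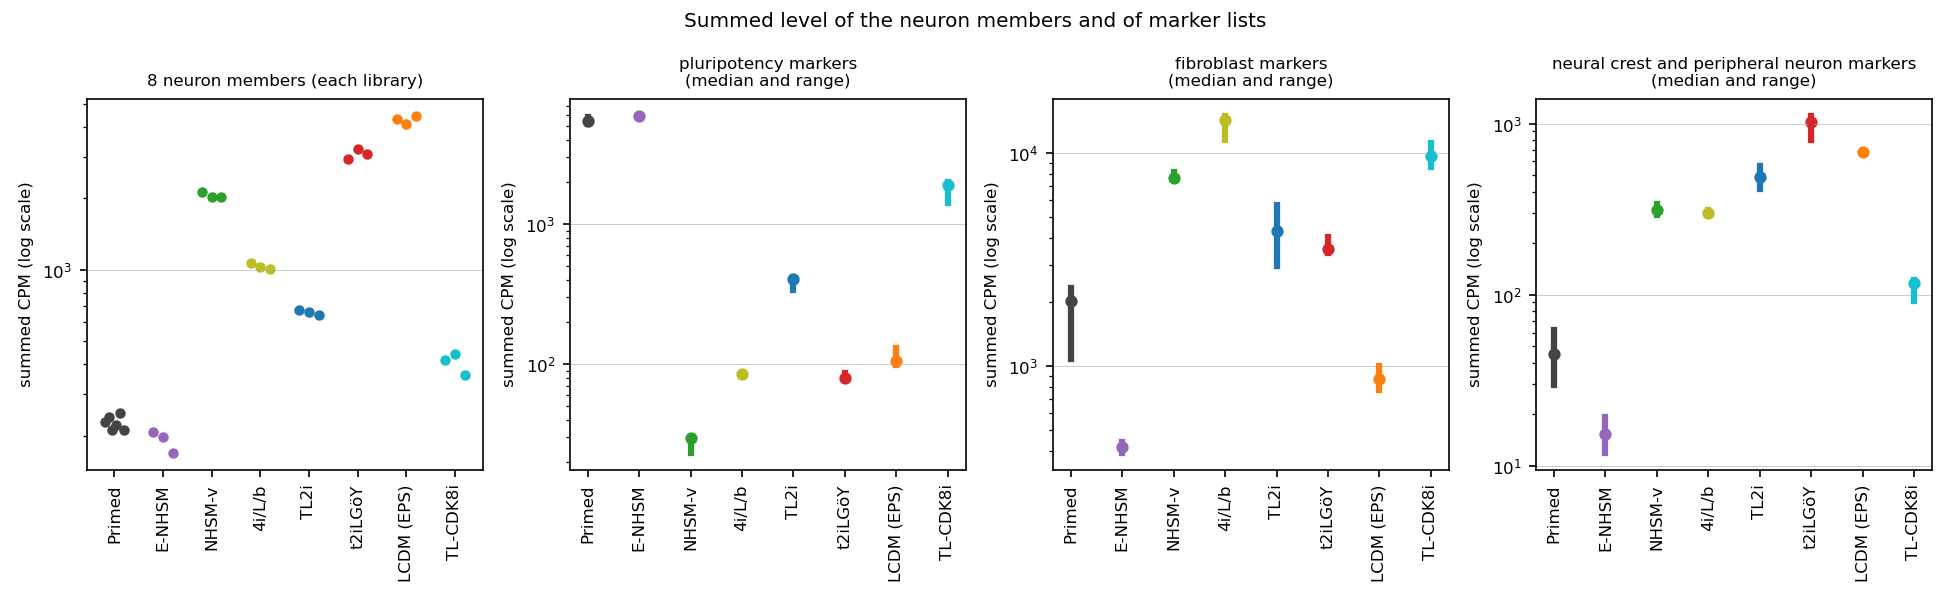
Summed CPM (log scale) of the 8 neuron genes in each library (left) and of 3 marker lists as the median (point) and range (line) of each group. The neuron sum rises from 169 CPM in an E-NHSM library to 4460 CPM in LCDM (EPS), the neural crest and peripheral neuron markers are highest in t2iLGöY and LCDM (EPS), and the fibroblast markers are highest in 4i/L/b and TL-CDK8i.

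For each of the 10 genes, the genes most like it over the 8 group means of log2 CPM were sought among 9913 or 9914 whose mean log2 CPM was 3 or more. NES was most like PELI1 (Pearson r = 0.922) and LEPROTL1 (0.921), and FABP7 most like NRCAM (0.984) and CXCR4 (0.98). For TUBB3 these were TK2 (0.991) and USP40 (0.988), and for DCX FAM104B (0.988) and FSD1L (0.985). STMN2 went with EBF1 (0.983) and ZNF704 (0.977), and MAP2 with KAT6A (0.988) and CELSR2 (0.985). The closest to ELAVL3 were TMTC2 (0.995) and FZD3 (0.994), and to ELAVL4 KCNRG (0.992) and NOVA2 (0.987). GAP43 was nearest to SH3GLB1 (0.985) and SNAPIN (0.974), and NCAM1 to SMARCD3 (0.99) and TSPAN3 (0.987). With 8 points and this many genes compared, such values are a description of the order of the groups.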

How the data were processed

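Strand-specific mRNA libraries were read from 1 end. The authors deposited the raw read counts of every gene symbol, unpooled, with a column for each library. The submitters' processing notes name bcl2fastq, cutadapt, HISAT2, and HTSeq, whose versions, genome build, and annotation are not given in the sources used here, so no positions are printed. All 27 columns were mapped to groups by name. The titles name primed libraries as Primed or Primed 2. The 6 primed columns carry letters (J and K, 3 each) that match no label. The labels' numbers of 2 primed libraries disagree.

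CPM used TMM scaling over all libraries (edgeR 4.0.16 with limma 3.58.1, under R 4.3.3). The quasi-likelihood test was run on each comparison's own libraries after filterByExpr, without a block. Each standard error was derived from F and the fold change. The procedure was checked on simulated data. Alternatives were DESeq2 1.42.0, upper-quartile scaling, no filter, all 8 groups in one fit, either primed letter, each library left out, a prior count of 0.5, and, between protocols, a replicate block. Same-numbered libraries of protocol pairs had correlations of -0.127 to 0.0228 in their deviations from group means. Named genes were the members, the 4 most abundant of each of 3 neural lists, the most abundant of each marker list with any at 3 counts or fewer in every library, and the 2 genes most like each member. Some genes that this rule names are not reported here. The members and lists were chosen with earlier results of these data known, and 98 of 99 symbols were found (not TUBB2B).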

Additional observations from a re-analysis of the deposited data

Results flagged for a closer look

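MAP2 in primed replicate J3 stood apart from the other 5 primed libraries. Its level was 28.3 CPM, the next was 75.2 CPM and the highest 102 CPM, so the gap took 0.634 of the whole range, above Dixon's critical value for 6 samples. Chance gives such a gap in about 1 of 20 groups. The primed values of all 10 members were screened in this way, so a gap in 1 of them is less rare than that. J3 was the shallowest library, with 7111886 counts, and it also held the highest STMN2 of the primed libraries (23.3 CPM) and no count of FABP7, DCX, ELAVL3, or ELAVL4. The numbers of members called without J3 are given with the comparisons. The cause was not tested.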

How the results depend on the processing

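Of the 67 tests of members against primed cells, 56 passed the threshold, and 50 of these kept their call under all 15 alternatives. The calls lost under some alternative, named with the genes, were those of DCX in E-NHSM, FABP7 in NHSM-v and 4i/L/b, STMN2 in TL2i and TL-CDK8i, and GAP43 in TL-CDK8i. No called change reversed. Of 11 not called, 3 passed somewhere. Between protocols, 31 of 40 passed and 24 kept their call under all 11 alternatives. Low counts limit FABP7, DCX, ELAVL3, and ELAVL4, each without a count in at least 1 primed library.

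With all 8 groups in one fit, 2444 genes were higher in E-NHSM (1476 in its own fit) and 2122 in NHSM-v against 4i/L/b (3262), and the members higher were 1 in TL-CDK8i against TL2i (3) and 3 in LCDM (EPS) against t2iLGöY (6). With primed letter J only, 1 member was higher in E-NHSM (2), and with upper-quartile scaling 2 were lower in NHSM-v against 4i/L/b (1). Leaving out 1 library gave 977 to 1777 genes higher in E-NHSM, the lowest values being 978, 983, and 977 without its replicate 1, 2, or 3. The members higher were then 1 to 2 in E-NHSM and 3 to 6 in TL-CDK8i, where 2323 to 3264 of all genes were higher. The causes were not tested.

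Values that changed sign had no call. FABP7 in E-NHSM was -0.19 with letter K only and -0.18 to 0.96 with 1 library left out. NES in 4i/L/b was -0.0102 with letter J only and -0.0123 to 0.0901 with 1 library left out. MAP2 in TL-CDK8i was 0.19 with letter J only and -0.51 to 0.12 with 1 library left out. TUBB3 in LCDM (EPS) against t2iLGöY was -0.00928 with upper-quartile scaling and -0.00618 to 0.0333 with 1 library left out. A replicate block left the numbers of members higher and lower as they were, at 3 and 5 in TL-CDK8i against TL2i, 6 and 0 in LCDM (EPS) against t2iLGöY, 10 and 0 against TL2i, and 6 and 1 in NHSM-v against 4i/L/b. Shared numbers did not pair these libraries, and not every library correlated best with its own number. No paired analysis was possible against primed cells because their columns carry no number of the labels.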
